A study of Mus musculus with 30 samples.

Results

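The nuclear genes of the mitochondrial respiratory chain were followed through the differentiation of mouse embryonic stem cells (ESC) towards blood. The members were all genes of the expression table whose symbol begins with Nduf followed by a, b, c, s or v and a digit, is Sdha, Sdhb, Sdhc or Sdhd, or begins with Uqcr, with Cox and a digit from 4 to 8, or with Atp5, pseudogenes left out. This gave 81 of 14685 genes, of which 35 were assigned to complex I, 4 to complex II, 8 to complex III, 17 to complex IV and 17 to complex V. The rule used names only and no measured value, and all 81 passed the filter on low values. Ndufa4, Ndufa4l2 and Cox7a2l, whose products associate with complex IV, were counted there. Atp5s and Atp5sl, named for the ATP synthase but not core subunits of it, were counted with complex V by their names alone.

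RNA was sequenced from 30 samples in 15 groups of 2 replicates. Parental E14 cells (WT) were compared with 2 mutant E14 lines from earlier work, for which the labels name no clone. In Sp1 ΔDBD (labelled Sp1_deltaDBD) the transcription factor Sp1 lacks its DNA-binding domain, and in Sp3-/- (labelled Sp3KO) the related factor Sp3 is knocked out. Each line was sampled as ESC, as Flk1+ cells selected from embryoid bodies, and as 3 populations sorted on day 2 of blast culture: the first hemogenic endothelium (HE1, KIT+ CD41- Tie2+), the second (HE2, KIT+ CD41+ Tie2+) and progenitors (KIT+ CD41+ Tie2-). Values are quantile-normalised FPKM, so the depth of each library is unknown. The replicates are described as biological, without saying whether each came from its own culture, and the p-values measure the spread between them.

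The labels could be checked in part. Sp3 averaged 3.78 to 7.45 FPKM in the Sp3-/- groups against 26.1 to 46.7 FPKM in WT and fell in all 5 populations. Sp1 averaged 17.6 to 38.3 FPKM in the Sp1 ΔDBD groups against 25.2 to 49.8 FPKM in WT, which does not check the deletion, since a gene total also counts truncated transcripts. The markers of each labelled population were present, but they did not part all populations. The 5 ESC markers summed to between 1086 and 1331 FPKM in ESC and to at most 97.6 FPKM elsewhere. The 5 HE2 markers summed to 204 and 320 FPKM in Sp1 ΔDBD HE1 and to 228 and 289 FPKM in its HE2. Itga2b, which encodes CD41, was at 34.8 and 49.15 FPKM in WT HE1 and at 42.8 and 55.7 FPKM in Sp1 ΔDBD HE1. It was at 83.3 and 81.8 FPKM in Sp3-/- HE1, against 84.6 and 147.5 FPKM in WT HE2. Markers of other cells also appeared, given here for the first and second replicate. The 7 cardiac and smooth muscle markers summed to 1699 and 356 FPKM in WT HE1, mostly from Acta2 and Tagln. Their sums were 998 and 248 FPKM in Sp1 ΔDBD HE1 and 195 and 123 FPKM in Sp3-/- HE1. The 6 primitive erythroid markers summed to 13629 and 4511 FPKM in WT progenitors. They summed to 9702 and 7499 FPKM in Sp1 ΔDBD progenitors and to 1521 and 3480 FPKM in Sp3-/- progenitors. Their part in the values below was not tested.

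One feature of the libraries touches every Sp1 ΔDBD result. In each of the 5 Sp1 ΔDBD populations the first replicate held more respiratory chain RNA than the second: the median difference over the 77 members above a mean of 3 FPKM was 0.26 to 0.32 on the log2 scale, with 60 to 68 of the 77 higher in the first. The same difference was 0.19 in WT ESC, -0.20 in WT HE1 and -0.23 in WT progenitors, and between -0.05 and 0.02 in Sp3-/-. In the Sp1 ΔDBD pairs the mitochondrial ribosomal protein genes differed in the same direction, by a median of 0.19 to 0.55, while the cytosolic ribosomal protein genes differed by 0.01 to 0.07. A second feature is chromosomal: the 852 genes of chromosome 11 with a mean above 3 FPKM had median log2 fold changes of -0.13 to -0.38 in the Sp1 ΔDBD comparisons and -0.13 to -0.30 in the Sp3-/- comparisons. The lowest median of any other chromosome was -0.06 in Sp1 ΔDBD and -0.21 in Sp3-/-. Chromosome X, which holds Cox7b, Ndufa1 and Ndufb11, was lower than chromosome 11 in Sp3-/- ESC (-0.206 against -0.197) and Flk1+ cells (-0.157 against -0.130). Atp5g1, Atp5h, Uqcr10 and Uqcrq lie on chromosome 11.

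The respiratory chain passes electrons from NADH (through complex I) and from succinate (through complex II) to ubiquinone, then through complex III and cytochrome c to complex IV, which reduces oxygen. Complexes I, III and IV pump protons across the inner mitochondrial membrane, and complex V, the ATP synthase, uses the gradient to make ATP. Most subunits are nuclear-encoded and imported, and several subunits of complex IV exist as alternative isoforms with tissue-restricted expression. Pluripotent cells are known for a largely glycolytic metabolism and for remodelling their mitochondria as they differentiate. Sp1 and Sp3 bind GC-rich promoter elements, and the genes of many respiratory chain subunits are also known targets of the factors NRF1, GABPA (an ETS factor) and YY1.

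As a set the members were abundant and varied little. Their summed FPKM made up between 1.70% and 2.41% of the table in each sample, with a median of 2.09%. The median member averaged 80.5 FPKM over the 30 samples against 8.02 FPKM for the median gene, and 65 of the 81 were among the most abundant 10% of genes. The SD of the 15 group means on the log2 scale had a median of 0.25 over the members, against 0.62 over all genes tested and 0.33 over the 1469 genes of the most abundant 10%. The 5 members whose SD exceeded 1 were Cox6b2, Cox7a1, Cox4i2, Ndufa4l2 and Cox7b2, all of them isoforms or paralogues counted with complex IV.

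**Figure D1:**
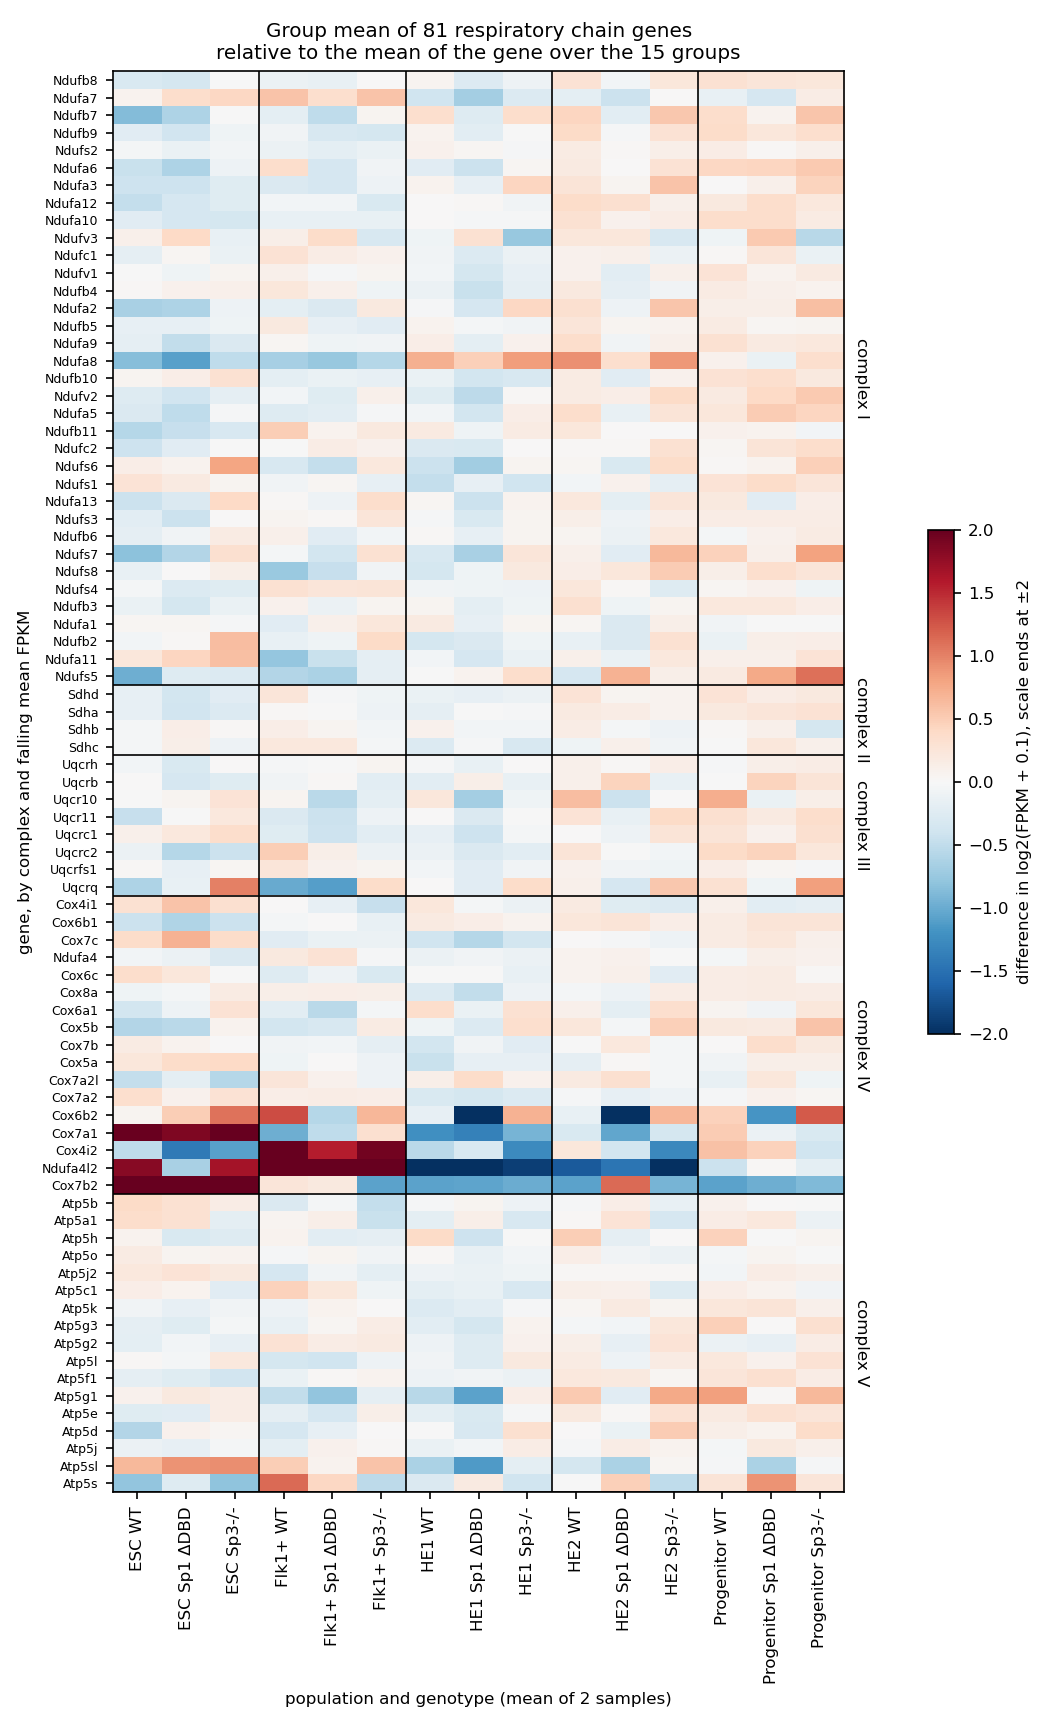
Mean of 2 samples for each of the 81 genes (rows, by complex) in the 15 groups (columns), as the difference in log2(FPKM + 0.1) from the mean of the gene over the groups. Most rows stay close to their own mean, and the strongest colours sit in the rows of Cox6b2, Cox7a1, Cox4i2, Ndufa4l2 and Cox7b2.

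Levels were set out by complex. Complex V was the most abundant, with a median over its genes of 176 FPKM, led by the catalytic head subunit gene Atp5b at 732 FPKM, with Atp5s the lowest at 3.59 FPKM. Complex IV followed at 132 FPKM, from Cox4i1, the common isoform of subunit 4, at 449.6 FPKM down to the testis isoform Cox7b2 at 0.27 FPKM. Complex III had a median of 116 FPKM, from the hinge protein gene Uqcrh at 211 FPKM to Uqcrq, an accessory subunit, at 8.44 FPKM. The 4 genes of complex II lay close together, from Sdhc, a membrane anchor, at 56.7 FPKM to Sdhd, the other anchor, at 84.3 FPKM. Complex I had the lowest median, 61.8 FPKM, from Ndufb8 at 134 FPKM to Ndufs5 at 1.98 FPKM, both accessory subunits. The level of Ndufs5 is uncertain, since 31.1% of the 50-base windows of its transcripts also occur in transcripts of other genes. Such sharing reached 89.8% for Atp5o and 68.5% for Atp5l, and was found to some degree in 37 of the 81 members, 32 of them with a pseudogene. For Atp5o the gene sharing the most windows was Donson, which is protein-coding, and for Atp5l it was a processed pseudogene.

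**Figure D2:**
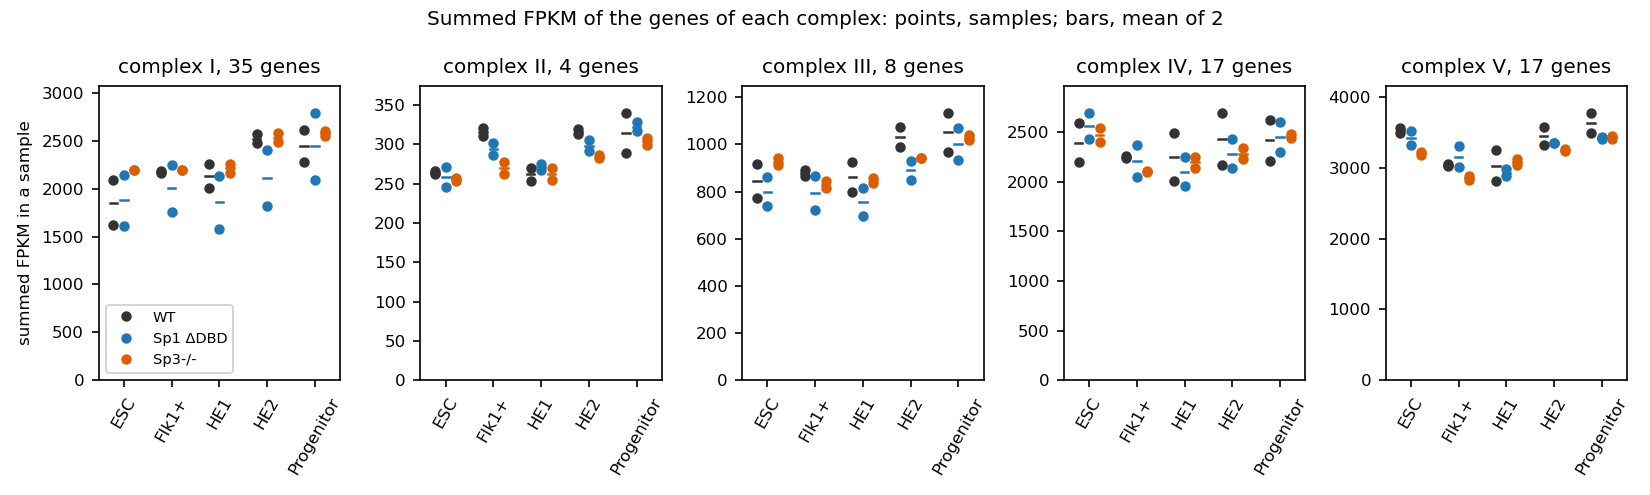
Summed FPKM of the genes of each complex (y axis, from 0) in every sample (points) by population (x axis), with the genotype in colour and a bar at the mean of 2. The Sp1 ΔDBD pair is spread most widely in complex I, where its second replicate lies at 1583 to 2091 FPKM and its first at 2136 to 2792 FPKM.

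The sums by complex were also compared between populations. Over the 6 samples of a population the median sum of complex I was 2116 FPKM in ESC, 2191 in Flk1+ cells, 2151 in HE1, 2480 in HE2 and 2577 in progenitors. The range of the 6 samples was 1614 to 2193 FPKM in ESC and 2091 to 2792 FPKM in progenitors. The lowest progenitor sample, the second Sp1 ΔDBD replicate, overlapped the ESC range. In Sp3-/- the sums were 2190.7 and 2193.1 FPKM in ESC and 2550.4 and 2604.5 FPKM in progenitors. In WT and in Sp3-/- both progenitor samples lay above both ESC samples. Complex I of the WT pairs summed to 2087 and 1623 FPKM (ESC), 2188 and 2166 (Flk1+ cells), 2009 and 2262 (HE1), 2475 and 2567 (HE2), and 2283 and 2608 (progenitors). The sum of complex V differed between the first stages. It was 3566 and 3491 FPKM in WT ESC and 3019 and 3046 FPKM in WT Flk1+ cells, which do not overlap. Its most abundant genes weigh most in it: Atp5b averaged 943 FPKM in WT ESC and 593 in Flk1+ cells, and Atp5a1 544 and 441. The mean log2 value over its genes overlapped, at 6.97 and 6.79 in WT ESC and 6.90 and 6.91 in Flk1+ cells. From HE1 (2808 and 3251 FPKM) over HE2 (3318 and 3568) to progenitors (3491 and 3776) the WT sums of complex V were higher at each step, with HE2 and progenitors overlapping.

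The steps of the WT series ask how expression of the chain changes as ESC become mesoderm, hemogenic endothelium and progenitors. From ESC to Flk1+ cells 15 members rose and 10 fell of 81, or 25 in all, against 52.2% of all genes called in that step (27.4% up and 24.7% down). The median fold change of the members was 0.18 on the log2 scale (all genes, 0.03). Without the second ESC replicate it was -0.02, and without either Flk1+ replicate 13 members were called. In bulk samples, fewer cells of a type and less RNA per cell cannot be told apart. The calls differed by complex: 5 genes of complex I rose and 3 fell, 1 of complex II rose, 1 of complex III rose and 1 fell, 5 of complex IV rose and 4 fell, and 3 of complex V rose and 2 fell.

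The largest changes of this step were in the isoforms of complex IV. Cox7a1, the heart and muscle isoform of subunit 7a, stood at 18.5 and 13.6 FPKM in WT ESC and at 1.63 and 2.38 FPKM in WT Flk1+ cells. It fell by 2.95 on the log2 scale (SE 0.44, limma adjusted p = 1.31e-05) and stayed between 1.43 and 7.34 FPKM in the later WT populations. Its common counterpart Cox7a2 was at 126 and 124 FPKM in ESC and at 109 and 107 FPKM in Flk1+ cells, so Cox7a1 made up 12.8% and 9.87% of the pair in ESC and 1.47% and 2.17% in Flk1+ cells. The testis isoform Cox7b2 was detected at 1.36 and 1.003 FPKM in ESC and listed at 0 and 0.30 FPKM in Flk1+ cells (adjusted p = 0.00223), beside Cox7b at 121 to 156 FPKM in the same samples. The Cox7b2 call was lost without the first Flk1+ replicate (adjusted p = 0.0727).

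Other isoforms moved the opposite way. Cox4i2, the hypoxia-inducible isoform of subunit 4 known from lung, was at 1.47 and 0.38 FPKM in WT ESC and at 8.15 and 6.82 FPKM in WT Flk1+ cells, a rise of 3.12 (SE 0.75, adjusted p = 0.00181). Ndufa4l2, the hypoxia-inducible paralogue of Ndufa4, was at 2.12 and 1.65 FPKM in ESC and at 8.58 and 7.46 FPKM in Flk1+ cells, a rise of 2.04 (SE 0.70, adjusted p = 0.0199). This call was lost without the second ESC replicate (adjusted p = 0.0994), the first Flk1+ replicate (0.0858) or the second Flk1+ replicate (0.0603). Both genes were low again in HE1, with Cox4i2 at 0.62 and 1.18 FPKM (adjusted p = 0.00261) and Ndufa4l2 listed at or near 0 in both samples (adjusted p = 4.5e-07). Against their abundant partners they were minor throughout: Cox4i2 reached 1.81% of the Cox4i1 and Cox4i2 sum and Ndufa4l2 3.31% of the Ndufa4 and Ndufa4l2 sum in the WT samples, both in Flk1+ cells. The same Flk1+ peak was seen in the mutants, with Cox4i2 at 2.79 and 5.59 FPKM in Sp1 ΔDBD and 4.15 and 6.77 FPKM in Sp3-/-, and Ndufa4l2 at 3.22 and 3.01 FPKM and 5.63 and 9.11 FPKM.

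**Figure D3:**
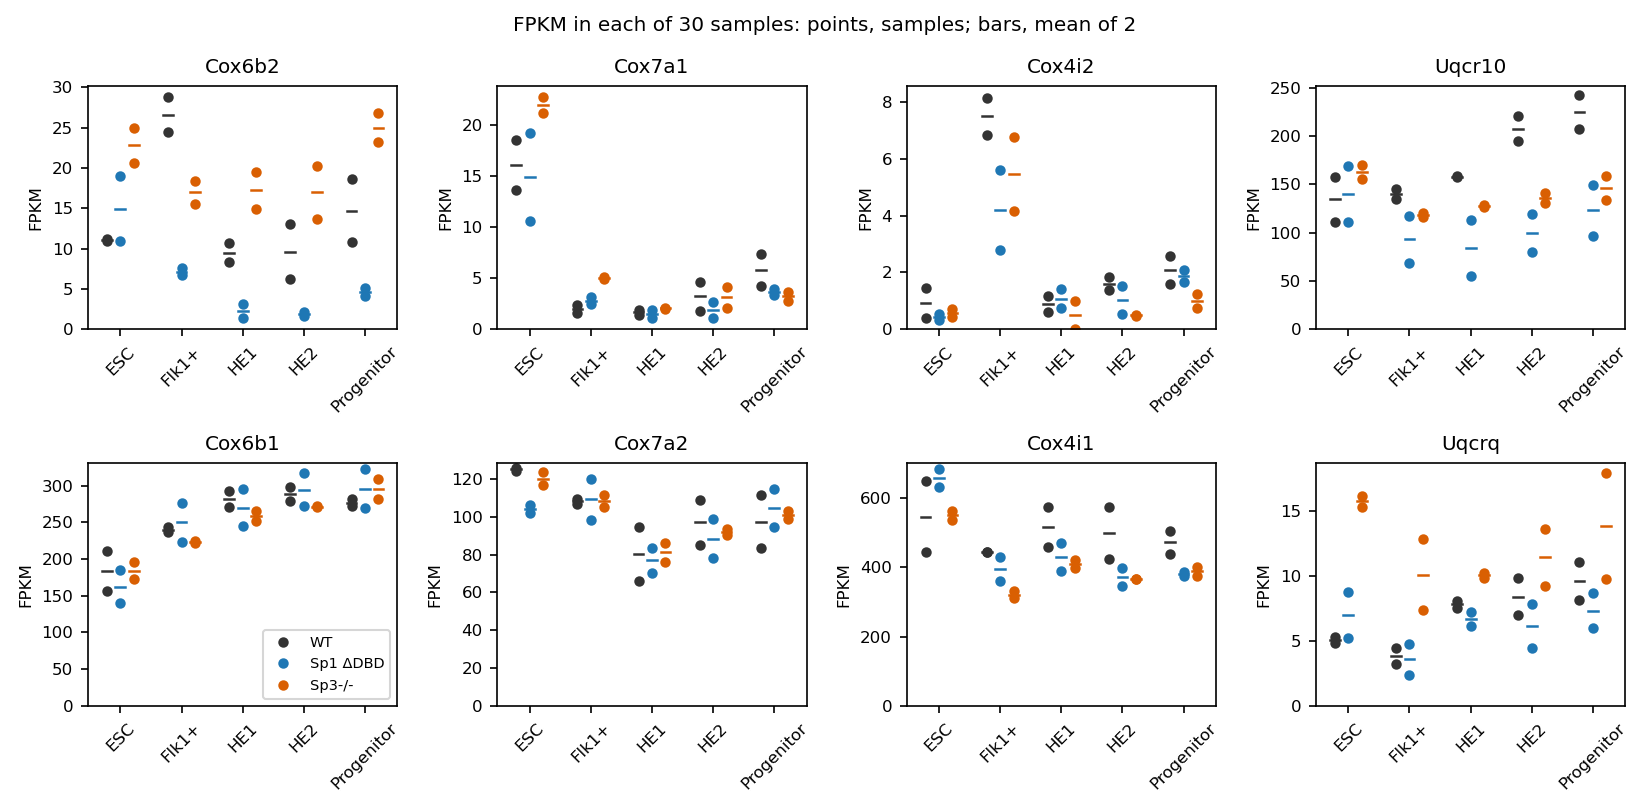
FPKM of Cox6b2, Cox6b1, Cox7a1, Cox7a2, Cox4i2, Cox4i1, Uqcr10 and Uqcrq (one panel each, y axes from 0 and of different length) by population, with samples as points, genotypes in colour and a bar at the mean of 2. Cox7a1 is highest in ESC and Cox4i2 in Flk1+ cells in all 3 genotypes, and the Sp1 ΔDBD points of Cox6b2 lie below the WT points from Flk1+ cells onwards.

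Cox6b2 was at 10.97 and 11.2 FPKM in WT ESC and at 24.4 and 28.8 FPKM in WT Flk1+ cells, a rise of 1.25 (SE 0.36, adjusted p = 0.00681) that missed the threshold without the second Flk1+ replicate (adjusted p = 0.0528). It encodes the testis isoform of subunit 6b, which lies on the intermembrane space side of complex IV. It then fell to 8.36 and 10.7 FPKM in HE1 (log2 fold change -1.48, SE 0.36, adjusted p = 0.00198). Atp5s was at 1.98 and 1.79 FPKM in WT ESC, at 6.45 and 8.24 FPKM in Flk1+ cells and at 2.36 and 3.02 FPKM in HE1. It rose by 1.90 (SE 0.24, adjusted p = 2.45e-06) and fell by 1.42 (SE 0.24, adjusted p = 7.74e-05), so its level in WT peaked in Flk1+ cells.

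Among abundant genes the changes were smaller. Atp5b was at 879 and 1007 FPKM in WT ESC and at 595 and 591 FPKM in Flk1+ cells, and fell by 0.67 (SE 0.14, adjusted p = 0.000729). Uqcrc2, a core protein of complex III, rose from 77.7 and 67.6 FPKM to 109 and 112 FPKM (0.61, SE 0.12, adjusted p = 0.000295) and fell back to 72.2 and 72.8 FPKM in HE1 (-0.61, SE 0.12, adjusted p = 0.000294). In complex I the accessory genes Ndufb11 and Ndufa11 parted: Ndufb11 went from 42.8 and 31.9 FPKM to 78.1 and 77.9 FPKM, and Ndufa11 from 18.1 and 13.9 FPKM to 8.53 and 7.49 FPKM. Ndufb11 rose by 1.08 (SE 0.20, adjusted p = 0.000143) and Ndufa11 fell by 0.98 (SE 0.29, adjusted p = 0.00746), the latter not called without the first ESC replicate (adjusted p = 0.0765) or the second Flk1+ replicate (0.056). Of the iron-sulfur core subunits, Ndufs7 rose by 0.77 while Ndufs1 and Ndufs8 fell by 0.33 and 0.59. The Ndufs7 call was lost without the first ESC replicate (adjusted p = 0.068) or the first Flk1+ replicate (0.103), the Ndufs1 call without the second ESC replicate (adjusted p = 0.259), the first Flk1+ replicate (0.104) or the second Flk1+ replicate (0.0834), and the Ndufs8 call with any 1 of the 4 samples left out.

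From Flk1+ cells to HE1, 3 members rose and 16 fell, 19 in all, against 53% of all genes called (23.5% up and 29.5% down). Without the first HE1 replicate 9 were called, and without the second Flk1+ replicate 11. The called falls included 6 genes of complex IV, 4 of complex V, 2 of complex III, and 2 each of complexes I and II. After Ndufa4l2, Cox4i2, Cox6b2 and Atp5s, given above, the falls ranged from 1.14 in Atp5sl and 0.97 in Ndufa7, an accessory subunit of complex I, down to 0.31 in Uqcrfs1, the Rieske iron-sulfur protein of complex III. Atp5sl and Ndufa7 are named after their values were seen. Sdhc and Sdhd fell by 0.50 and 0.37, and Ndufs1 by 0.41. These 3 calls were lost without the first HE1 replicate, with adjusted p = 0.146, 0.208 and 0.111. The rises were in Ndufa8, Uqcrq (by 1.03) and Ndufa11 (by 0.71). The Uqcrq call was lost without the second Flk1+ replicate (adjusted p = 0.176), the first HE1 replicate (0.0986) or the second HE1 replicate (0.0687), and the Ndufa11 call with any 1 of the 4 samples left out. Ndufa8, an accessory subunit on the intermembrane space side of complex I, was at 35.9 and 36.0 FPKM in WT Flk1+ cells, at 91.9 and 94.6 FPKM in HE1, at 106.5 and 108 FPKM in HE2 and at 58.5 and 62.3 FPKM in progenitors. It rose by 1.37 into HE1 (SE 0.11, adjusted p = 5.92e-09) and fell by 0.83 from HE2 to progenitors (SE 0.11, adjusted p = 2.77e-05). The WT pairs of Flk1+ cells, HE1 and progenitors do not overlap one another, and both calls held in all 16 alternative analyses. Ndufa8 was called at both steps in the mutants too: it rose from Flk1+ cells to HE1 by 1.23 in Sp1 ΔDBD and by 1.4 in Sp3-/-, and fell from HE2 to progenitors by 0.46 and 0.53.

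The same steps were tested in the mutants. From ESC to Flk1+ cells 24 members were called in Sp1 ΔDBD (48.6% of all genes) and 16 in Sp3-/- (48.8%), and from Flk1+ cells to HE1 15 (46.1%) and 8 (44%). Whether these numbers differ between genotypes was not tested.

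The upstream bases of Ndufa8 are shown because it rose from Flk1+ cells to HE1 and fell from HE2 to progenitors in all 3 genotypes. The 250 bases before the RefSeq start (GRCm38.p6) are written 5′ to 3′ with matches of GGGCGG, the GC box, and of GCATGCGC, the core of the NRF1 site, in capitals, on either strand.
Ndufa8 (chr2:36049339-36049588, minus strand): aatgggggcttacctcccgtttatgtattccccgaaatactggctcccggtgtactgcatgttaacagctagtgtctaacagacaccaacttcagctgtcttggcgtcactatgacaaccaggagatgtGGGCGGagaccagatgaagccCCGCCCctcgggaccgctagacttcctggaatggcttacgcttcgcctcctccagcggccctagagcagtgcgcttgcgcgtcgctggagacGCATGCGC
It holds 2 GC boxes and 1 NRF1 core. The part from 36049339 to 36049406 lies inside the Ndufa8 gene of the GENCODE annotation. A match describes the letters and is not evidence that a factor binds there.

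From HE1 to HE2, 5 members rose and 0 fell, against 21.9% of all genes called (11.7% up and 10.2% down), and 11 members, all of them higher, had an unadjusted p under 0.05. The direction was shared: 74 of the 81 were higher in HE2, including 33 of 35 of complex I, 4 of 4 of complex II, 8 of 8 of complex III, 13 of 17 of complex IV and 16 of 17 of complex V. The median log2 fold change was 0.22, against 0.05 over all genes. Without the first WT HE1 replicate 62 of the 81 were higher, with a median of 0.14 and 0 called. Without the second, 9 were called, and without the first or second HE2 replicate, 3 and 2. After a correction for GC content and length 45 of the 81 were higher, with a median of 0.04. The first WT HE1 replicate is also the sample with muscle markers at 1699 FPKM and feeder fibroblast markers at 282.5 FPKM, against 356 and 35.7 FPKM in the second. In Sp1 ΔDBD HE1 the first replicate also held more muscle marker RNA, at 998 against 248 FPKM. There its members were higher than in the second, by a median of 0.32 log2 units. A link between these markers and the members was not tested. In the mutants 71 of 81 members were higher in HE2 than in HE1 in Sp1 ΔDBD (2 called) and 64 of 81 in Sp3-/- (0 called, 5 at an unadjusted p under 0.05), where 20% and 14.4% of all genes were called.

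The gene with the largest rise from HE1 to HE2 was Atp5g1, which with Atp5g2 and Atp5g3 encodes the same mature c subunit of the ATP synthase ring. It was at 70.5 and 76.7 FPKM in WT HE1 and at 189.5 and 121 FPKM in HE2, a rise of 1.04 (SE 0.26, adjusted p = 0.00815) that was lost without the first HE1 replicate (adjusted p = 0.0571) or the first HE2 replicate (0.125). Atp5g1 made up 18.95% and 18.6% of the 3 c subunit genes in WT HE1 and 36.2% and 23.3% in HE2. Ndufs1, Sdhd, Uqcrc2 and Ndufa10 rose by 0.42, 0.41, 0.37 and 0.30. Ndufa10, an accessory subunit of complex I, is named after its values were seen.

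From HE2 to progenitors 1 member rose and 1 fell, against 13.2% of all genes called (5.46% up and 7.78% down), with 4 at an unadjusted p under 0.05. In the mutants 5 (15.8% of all genes) and 3 (8.77%) were called. Atp5g3 was at 163 and 191 FPKM in HE2 and at 290.1 and 213 FPKM in progenitors and rose by 0.50 (SE 0.13, adjusted p = 0.0172), and Ndufa8 fell as given above. The Atp5g3 call was lost without the first HE2 replicate (adjusted p = 0.174) or the first progenitor replicate (0.306).

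**Figure D4:**
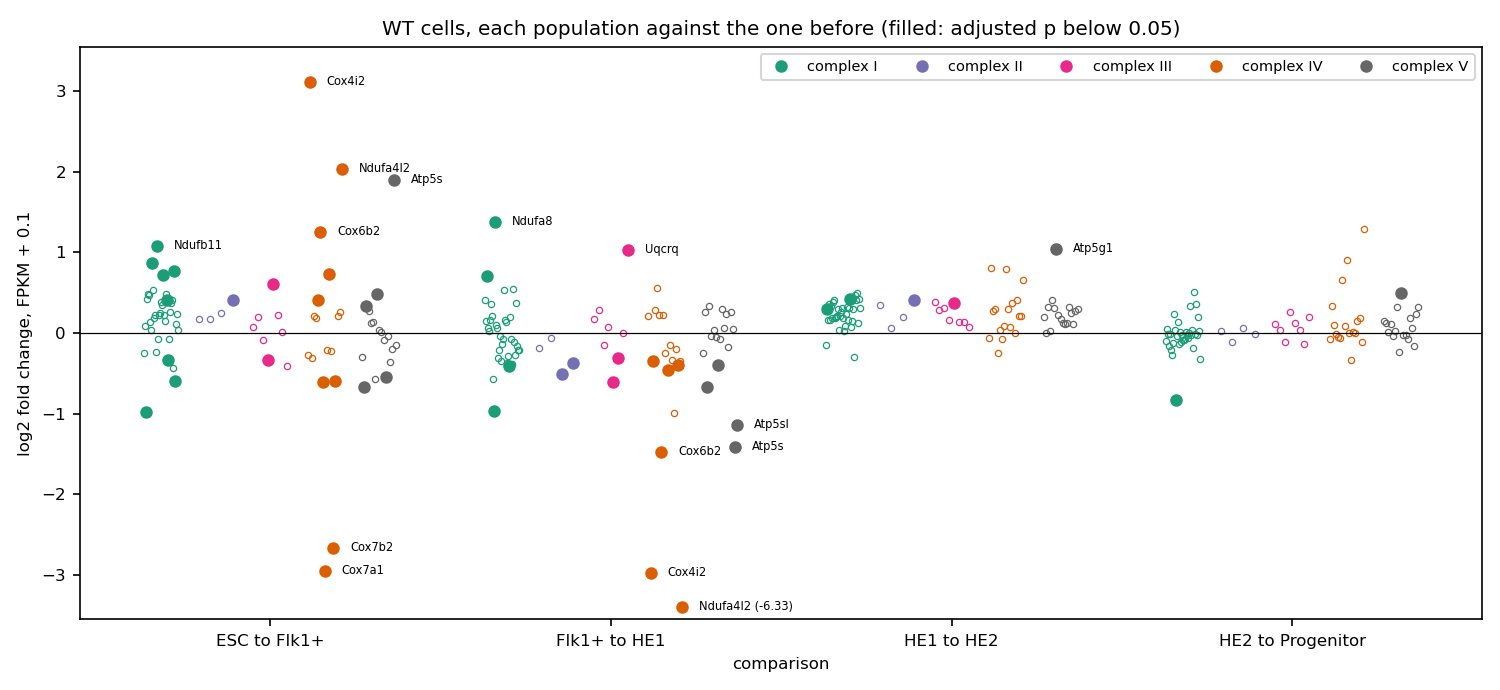
Log2 fold change of each of the 81 genes (y axis) in the 4 steps of the WT series (x axis), coloured by complex, with filled points for adjusted p below 0.05. In the HE1 to HE2 step 74 of the 81 points lie above 0 and 5 are filled. The Ndufa4l2 point from Flk1+ cells to HE1 is drawn at the edge of the axis with its value, and its size and that of Cox7b2 from ESC to Flk1+ cells depend on the pseudocount.

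The mutant comparisons ask how far expression of the chain depends on the DNA binding of Sp1 and on Sp3. All comparisons of a population share its 2 WT samples. In Sp1 ΔDBD ESC 1 member rose and 2 fell, where 6.06% of all genes were called (2.8% up and 3.26% down). In Flk1+ cells 0 rose and 1 fell (5.54% of all genes, 2.92% up and 2.62% down), in HE1 0 and 3 (10%, 5.69% and 4.35%), in HE2 0 and 5 (9.67%, 4.7% and 4.97%) and in progenitors 2 and 3 (8.78%, 3.75% and 5.04%). In Sp3-/- ESC 7 members rose and 0 fell, where 11.3% of all genes were called (5.4% up and 5.91% down). In Flk1+ cells 2 rose and 3 fell (12.6% of all genes, 6.69% up and 5.94% down), in HE1 0 and 1 (10.9%, 6.02% and 4.87%), in HE2 1 and 1 (13.8%, 6.97% and 6.84%) and in progenitors 0 and 0 (8.65%, 3.88% and 4.77%). The shares of members were 1.23% to 6.17% in Sp1 ΔDBD and 0 to 8.64% in Sp3-/-, below the share of all genes in each of the 10 comparisons. These shares are for the main analysis, and under the alternative analyses the share of all genes was not taken. In Sp3-/- progenitors, with 0 calls by limma, 8 members had an unadjusted p under 0.05. With 1 sample left out at a time the counts stayed between 0 and 8, and the highest, 8 in HE1 and in HE2 of Sp1 ΔDBD, came without its first replicate. In Sp3-/- ESC 0 were called without the first Sp3-/- replicate, and 1 without the second or without the second WT replicate. Recovery was tried in simulated data for the Sp1 ΔDBD HE1 comparison, with independent noise and the typical spread of each level. Only abundant genes were changed, and no shift between replicates was simulated. There, 99% of genes changed 2-fold were recovered, and 33% of those changed by the square root of 2. These shares need not hold for the members. Members that vary more than most can change 2-fold without a call, as with Cox6b2 in Sp3-/- ESC. Cox6b2 there was at 25.02 and 20.6 FPKM against 10.97 and 11.2 FPKM in WT.

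**Figure D5:**
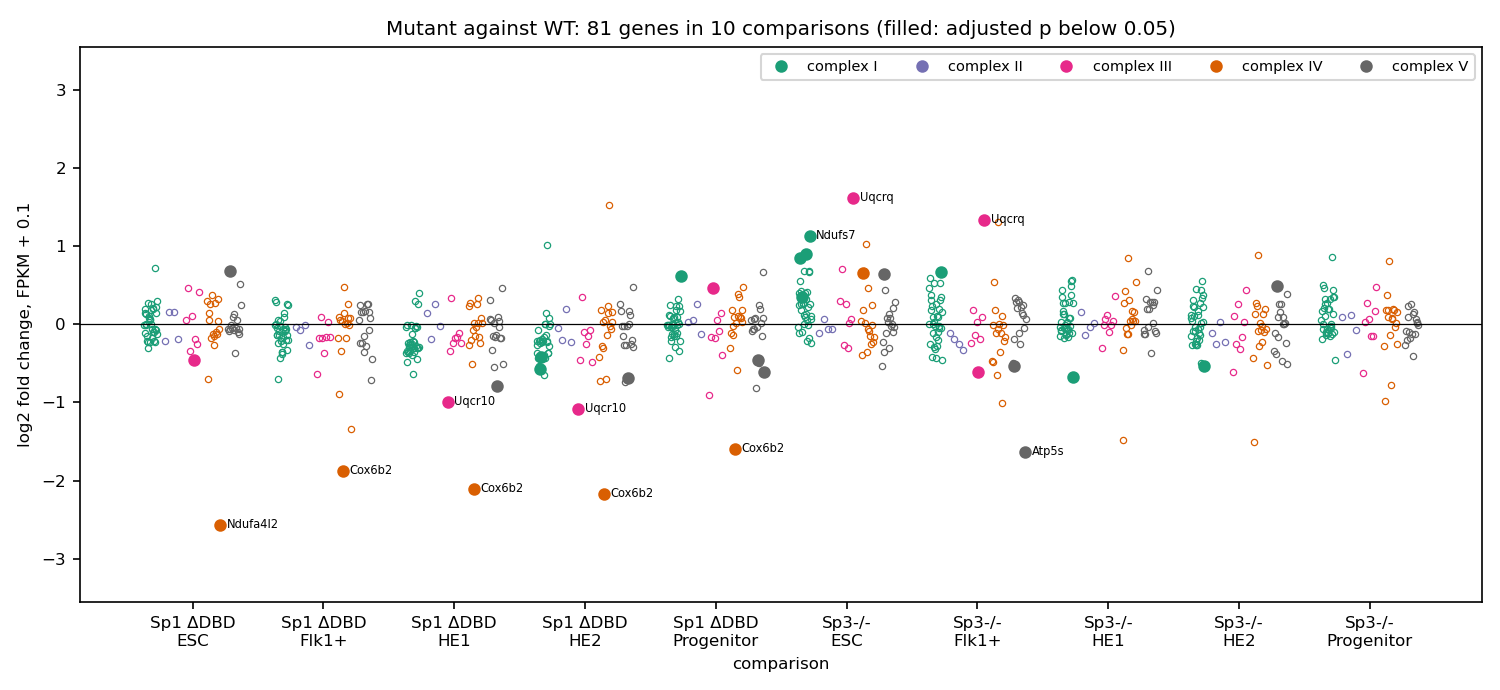
Log2 fold change against WT (y axis) of each of the 81 genes in the 10 mutant comparisons (x axis), coloured by complex, with filled points for adjusted p below 0.05. Filled points number 0 to 7 in a comparison, and Cox6b2 is the lowest filled point of the Sp1 ΔDBD comparisons in Flk1+ cells, HE1, HE2 and progenitors.

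Across the whole set, the median log2 fold change in Sp1 ΔDBD was -0.01 in ESC, -0.08 in Flk1+ cells, -0.17 in HE1, -0.20 in HE2 and 0.00 in progenitors, with the medians of all genes between 0 and 0.05. In HE1 60 of the 81 members were lower than in WT and in HE2 61. These medians follow the replicate taken: with the first Sp1 ΔDBD replicate alone they were 0.00 in HE1 and -0.01 in HE2, and with the second alone -0.35 and -0.30. The counts of calls moved with them, from 26 members in HE1 and 22 in HE2 with the second replicates to 1 and 5 with the first. These fits take an Sp1 ΔDBD library of every population out of the shared estimate of the spread, and the Sp3-/- calls, which compare none of those libraries, also rose, from 1 to 6 in HE1 and from 2 to 9 in HE2. The share of all genes called in these fits was not taken. After the correction for GC content and length the medians were -0.05 and 0.01. In Sp3-/- the medians of the 5 populations lay between -0.02 and 0.08.

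Complex I holds the most genes of the set. In Sp1 ΔDBD 32 of its 35 genes were lower in HE1 (median -0.26, 0 called, 7 at an unadjusted p under 0.05) and 30 in HE2 (median -0.23, 2 called). Without the second Sp1 ΔDBD replicate 16 were lower in HE1 (median 0.002) and 20 in HE2 (median -0.01). Both called genes encode accessory subunits. Ndufa8 was at 80.1 and 64.7 FPKM in Sp1 ΔDBD HE2 against 106.5 and 108 FPKM in WT, and fell by 0.58 (SE 0.11, adjusted p = 0.00195). Ndufa9, an accessory subunit of the matrix arm, was at 61.7 and 58.4 FPKM against 84.4 and 76.8 FPKM, and fell by 0.42 (SE 0.11, adjusted p = 0.021). Both calls were lost with the GC and length correction, with falls of 0.28 and 0.24 (adjusted p = 0.149 and 0.128). Ndufa8 was also lost without the second Sp1 ΔDBD replicate (adjusted p = 0.0563), and Ndufa9 without the first WT replicate (adjusted p = 0.156) or the second Sp1 ΔDBD replicate (0.149).

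Ndufv3, a small accessory subunit of the NADH-oxidising module, moved in opposite directions in the mutants. It was at 52.7 and 69.7 FPKM in WT progenitors, at 93.2 and 93.8 FPKM in Sp1 ΔDBD and at 43.0 and 45.5 FPKM in Sp3-/-. It rose in Sp1 ΔDBD progenitors by 0.62 (SE 0.17, adjusted p = 0.0276), and in Sp3-/- it fell by 0.67 in HE1 (adjusted p = 0.0175) and by 0.53 in HE2 (adjusted p = 0.0449). The samples of HE1 were at 54.5 and 68.2 FPKM in WT and 42.1 and 34.8 FPKM in Sp3-/-, and do not overlap. The call in Sp1 ΔDBD was lost without the first WT replicate (adjusted p = 0.259), the first Sp1 ΔDBD replicate (0.101) or the second Sp1 ΔDBD replicate (0.0808), that in Sp3-/- HE1 without the second WT replicate (adjusted p = 0.141) or the second Sp3-/- replicate (0.189), and that in HE2 with any 1 of the 4 samples left out. The difference between the mutants was not tested.

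In Sp3-/- ESC, 28 of the 35 genes of complex I were higher than in WT, with a median of 0.26 and 4 called. Without the second WT replicate 21 were higher, with a median of 0.02, and without the first 32 were higher, with a median of 0.43. Ndufs7, the core subunit that holds the last iron-sulfur cluster before ubiquinone, was at 23.4 and 25.5 FPKM in WT ESC and at 55.0 and 52.5 FPKM in Sp3-/- ESC. It rose by 1.14 (SE 0.24, adjusted p = 0.00568), and the pairs are far apart. In the other 4 populations its Sp3-/- samples, at 48.65 to 76.5 FPKM, also lay above both WT samples, with 0 of 4 called. The call in ESC just missed the threshold without the first WT replicate (adjusted p = 0.051) or the first Sp3-/- replicate (0.0567). Ndufb7, an accessory subunit on the intermembrane space side, was at 71.8 and 40.4 FPKM in WT and at 99.95 and 102 FPKM in Sp3-/- ESC, a rise of 0.91 (SE 0.26, adjusted p = 0.031) that was lost without the second WT replicate (adjusted p = 0.347), the first Sp3-/- replicate (0.137) or the second Sp3-/- replicate (0.15). The other 2 called genes of complex I, Ndufa13 and Ndufa8 with rises of 0.85 and 0.34, are named after their values were seen. Fold changes in this comparison followed the GC content of the transcript across 10014 genes, which are not independent replicates (Spearman's rho = 0.54), and after the GC and length correction Ndufs7 remained called with a rise of 0.50 in place of 1.14 (adjusted p = 0.0316). Ndufb7 was not called although its rise stayed at 0.90 (adjusted p = 0.0788), and Ndufa13 and Ndufa8 were not called with rises of 0.15 and 0.12 (adjusted p = 0.582 and 0.672). In Sp3-/- Flk1+ cells Ndufs8, another iron-sulfur core subunit, rose from 26.7 and 24.5 FPKM to 38.0 and 43.6 FPKM (0.67, SE 0.22, adjusted p = 0.0489), a call lost with any 1 of the 4 samples left out.

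No change of complex II was called in either mutant. Its 4 genes gave 0 calls in each of the 10 comparisons by limma, and at an unadjusted p under 0.05 there was 1, in Sp3-/- Flk1+ cells. In WT HE2 Sdha, the flavoprotein that oxidises succinate, was at 86.5 and 92.2 FPKM, against 72.4 and 103 FPKM in Sp1 ΔDBD and 81.5 and 83.6 FPKM in Sp3-/-. Sdhb, the iron-sulfur subunit, was at 80.3 and 64.3 FPKM, against 74.7 and 52.1 FPKM in Sp1 ΔDBD and 63.5 and 57.9 FPKM in Sp3-/-. The Sp1 ΔDBD samples overlap those of WT for both genes, while both Sp3-/- samples lie below both WT samples for each gene. In progenitors Sdhb averaged 51.3 FPKM in Sp3-/- against 66.8 FPKM in WT, and Sdha 96.4 against 90.7 FPKM.

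In complex III, Uqcr10, a small accessory subunit, was lower in Sp1 ΔDBD. It was at 112.9 and 55.1 FPKM in Sp1 ΔDBD HE1 against 159 and 157 FPKM in WT, and at 119.6 and 79.8 FPKM against 194 and 220.4 FPKM in HE2. It fell by 0.999 (SE 0.30, adjusted p = 0.0392) and by 1.08 (SE 0.30, adjusted p = 0.0259). Uqcr10 (chr11:4701973-4704342, minus strand) lies on chromosome 11, and once fold changes were centred by chromosome it was no longer called, with falls of 0.69 and 0.74 (adjusted p = 0.198 and 0.171). The call in HE1 was lost without the first WT replicate (adjusted p = 0.155), the second WT replicate (0.116) or the second Sp1 ΔDBD replicate (0.499), and that in HE2 without the first WT replicate (adjusted p = 0.0807), the second WT replicate (0.116) or the second Sp1 ΔDBD replicate (0.266). In Sp3-/- Uqcr10 was at 126 and 129 FPKM in HE1 and at 141 and 131 FPKM in HE2, and was not called.

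Uqcrq, another small accessory subunit, was higher in Sp3-/-. It was at 5.27 and 4.86 FPKM in WT ESC against 15.3 and 16.2 FPKM in Sp3-/- ESC, and at 4.46 and 3.19 FPKM against 7.36 and 12.8 FPKM in Flk1+ cells. It rose by 1.62 (SE 0.37, adjusted p = 0.00845) and by 1.34 (SE 0.37, adjusted p = 0.0237). Uqcrq is also on chromosome 11, whose genes had negative medians in these comparisons. The calls missed the threshold in ESC without the second WT replicate (adjusted p = 0.0519), the first Sp3-/- replicate (0.0596) or the second Sp3-/- replicate (0.0669), and in Flk1+ cells without the second WT replicate (adjusted p = 0.223) or the second Sp3-/- replicate (0.222).

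Uqcrc2, the core protein, fell in 1 population of each mutant. It was at 109 and 112 FPKM in WT Flk1+ cells and at 70.8 and 74.4 FPKM in Sp3-/-, fell by 0.61 (SE 0.12, adjusted p = 0.00312), and was called in 14 of 14 alternative analyses. In Sp1 ΔDBD ESC it fell by 0.46 (adjusted p = 0.026), from 77.7 and 67.6 FPKM in WT to 56.1 and 49.3 FPKM, a call lost without the first WT replicate (adjusted p = 0.191) or the second Sp1 ΔDBD replicate (0.171). Uqcrb, the ubiquinone-binding subunit, was at 154 and 181 FPKM in WT progenitors and at 235 and 225 FPKM in Sp1 ΔDBD progenitors and rose by 0.46 (SE 0.12, adjusted p = 0.0169). It was no longer called after the GC and length correction (a rise of 0.26, adjusted p = 0.508), once centred by chromosome (0.32, adjusted p = 0.177) or without the first WT replicate (adjusted p = 0.173) or the first Sp1 ΔDBD replicate (0.0927), and 43.2% of its 50-base windows occur in other transcripts.

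The gene that stood out in complex IV was Cox6b2. In Sp1 ΔDBD it was at 18.96 and 10.97 FPKM in ESC, 6.74 and 7.57 FPKM in Flk1+ cells, 3.18 and 1.40 FPKM in HE1, 2.15 and 1.70 FPKM in HE2 and 4.15 and 5.18 FPKM in progenitors. The WT samples of HE2 and progenitors were at 6.18 and 13.0 FPKM and at 10.8 and 18.6 FPKM, and the earlier WT values are given above. Outside ESC the WT and Sp1 ΔDBD samples do not overlap in any population. Cox6b2 fell by 1.88 in Flk1+ cells (adjusted p = 0.00364), by 2.11 in HE1 (0.000987), by 2.17 in HE2 (0.000707) and by 1.59 in progenitors (0.00924), each with an SE of 0.36. Of 16 alternative analyses it was called in 15 in Flk1+ cells, HE1 and HE2 and in 13 in progenitors. It missed the threshold in Flk1+ cells without the second WT replicate (adjusted p = 0.0576), in progenitors without the second WT replicate (adjusted p = 0.105) or the first Sp1 ΔDBD replicate (0.0757), and in HE1 and HE2 with the 6 samples of the population alone (adjusted p = 0.0815 and 0.0893). In ESC it was not called.

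In Sp3-/- Cox6b2 was at 25.02 and 20.6 FPKM in ESC, 15.6 and 18.4 FPKM in Flk1+ cells, 14.97 and 19.5 FPKM in HE1, 20.3 and 13.7 FPKM in HE2 and 26.9 and 23.2 FPKM in progenitors, with 0 of 5 comparisons called. The ubiquitous isoform Cox6b1 did not follow: in HE1 it was at 271 and 293 FPKM in WT, 295 and 245 FPKM in Sp1 ΔDBD and 252 and 266 FPKM in Sp3-/-. Cox6b2 therefore made up 2.995% and 3.50% of the 2 isoforms in WT HE1, 1.07% and 0.57% in Sp1 ΔDBD HE1 and 5.60% and 6.84% in Sp3-/- HE1.

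Both genes lie on chromosome 7, with Cox6b2 at chr7:4751792-4753094 on the minus strand. No 50-base window of the Cox6b2 transcripts is shared with another gene. The upstream sequences of the pair are shown because Cox6b2 was called in Sp1 ΔDBD and Cox6b1 was not. They are the 250 bases before the RefSeq start (GRCm38.p6), written 5′ to 3′ along the gene, with capitals for matches on either strand of GGGCGG, of CCAAT and of CCGGAAG, a site of ETS factors.
Cox6b2 (chr7:4753095-4753344, minus strand): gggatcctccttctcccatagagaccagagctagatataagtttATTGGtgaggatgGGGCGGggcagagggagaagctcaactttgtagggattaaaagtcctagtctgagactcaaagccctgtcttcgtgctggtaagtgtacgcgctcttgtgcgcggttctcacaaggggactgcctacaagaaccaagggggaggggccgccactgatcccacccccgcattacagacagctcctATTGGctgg
Cox6b1 (chr7:30626115-30626364, minus strand): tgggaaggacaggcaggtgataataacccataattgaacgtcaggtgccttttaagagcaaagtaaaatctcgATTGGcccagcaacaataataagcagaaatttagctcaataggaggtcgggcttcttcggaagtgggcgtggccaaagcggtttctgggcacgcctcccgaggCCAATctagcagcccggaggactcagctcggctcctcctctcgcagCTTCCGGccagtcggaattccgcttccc
Cox6b2 has 1 GC box, which begins 193 bases before the start, and 2 CCAAT boxes. Cox6b1 has 2 CCAAT boxes and 1 ETS site and no GC box in this window. The part from 30626115 to 30626151 lies inside the Cox6b1 gene of the GENCODE annotation.

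The remaining calls of complex IV were few. Ndufa4l2 fell in Sp1 ΔDBD ESC, where it was at 0.39 and 0.12 FPKM against 2.12 and 1.65 FPKM in WT (adjusted p = 0.0342), a call lost with any 1 of the 4 samples left out. The size of this fall depends on the pseudocount, with -2.57 at 0.1 and -1.20 at 1. In Sp3-/- ESC Cox5b, the zinc-binding subunit, rose by 0.65 (adjusted p = 0.0216) and is named after its values were seen, with 25.9% of its windows shared with other transcripts and its call lost with any 1 of the 4 samples left out. Cox7a1 in Sp3-/- was at 21.2 and 22.8 FPKM in ESC and 4.95 and 5.14 FPKM in Flk1+ cells, above the WT samples in both, and was not called.

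In complex V, Atp5d, which encodes the delta subunit of the central stalk, was higher in the ESC of both mutants. It was at 69.9 and 52.8 FPKM in WT ESC, at 109.8 and 86.2 FPKM in Sp1 ΔDBD ESC and at 97.7 and 93.0 FPKM in Sp3-/- ESC. It rose by 0.68 (SE 0.15, adjusted p = 0.0109) and by 0.65 (SE 0.15, adjusted p = 0.00948). These comparisons share the WT samples. The Sp1 ΔDBD call was lost without the second WT replicate (adjusted p = 0.175) or the first Sp1 ΔDBD replicate (0.147), and the Sp3-/- call without the second WT replicate (adjusted p = 0.132), the first Sp3-/- replicate (0.0896) or the second Sp3-/- replicate (0.055). After the GC and length correction the Sp3-/- rise was 0.09 (adjusted p = 0.658). In Sp3-/- HE2 Atp5d rose by 0.49 (adjusted p = 0.0374), from 92.4 and 94.4 FPKM to 124 and 139 FPKM, a call lost with any 1 of the 4 samples left out.

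Atp5h, a peripheral stalk subunit, was at 187 and 151 FPKM in Sp1 ΔDBD HE1 against 244 and 344 FPKM in WT, and at 232 and 165 FPKM against 318 and 311 FPKM in HE2. It fell by 0.78 (SE 0.20, adjusted p = 0.0189) and by 0.68 (SE 0.20, adjusted p = 0.0381). Atp5h lies on chromosome 11, was no longer called once centred by chromosome, with falls of 0.47 and 0.34 (adjusted p = 0.194 and 0.398), and shares 47.9% of its windows with other transcripts. In HE1 it was also lost without the second WT replicate (adjusted p = 0.183) or the second Sp1 ΔDBD replicate (0.196), and in HE2 without the first WT replicate (adjusted p = 0.149), the second WT replicate (0.104) or the second Sp1 ΔDBD replicate (0.372).

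Atp5g3 and Atp5sl fell in Sp1 ΔDBD progenitors by 0.46 and 0.61 (adjusted p = 0.0399 and 0.0498). The Atp5g3 call was lost without the first WT replicate (adjusted p = 0.403) or the first Sp1 ΔDBD replicate (0.227), and the Atp5sl call with any 1 of the 4 samples left out. In Sp3-/- Flk1+ cells Atp5s was at 2.21 and 2.33 FPKM against 6.45 and 8.24 FPKM in WT, and fell by 1.64 (SE 0.24, adjusted p = 0.000483), a call kept in 14 of 14 alternative analyses. Its Flk1+ peak was not seen in Sp3-/-, where it was at 1.74 and 1.95 FPKM in ESC and 2.75 and 2.20 FPKM in HE1. In Sp1 ΔDBD too its highest level was not in Flk1+ cells. There it averaged 2.74 FPKM in ESC, 4.45 in Flk1+ cells, 3.74 in HE1, 4.63 in HE2 and 6.22 in progenitors. Atp5c1, the gamma subunit of the central stalk, fell in the same Sp3-/- Flk1+ comparison by 0.54 (SE 0.13, adjusted p = 0.0126), a call lost without the second WT replicate (adjusted p = 0.146), the first Sp3-/- replicate (0.0939) or the second Sp3-/- replicate (0.0634).

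Whether a mutant effect depended on the stage was tested across all 5 populations. It did for 3 of 81 members in Sp1 ΔDBD, against 4.62% of all genes, and for 1 of 81 in Sp3-/-, against 5.27%. In Sp1 ΔDBD these were Cox6b2 (adjusted p of the moderated F test 0.0186), Uqcrb (0.0248) and Atp5d (0.0443), and in Sp3-/- Atp5s (0.0228). The Cox6b2 effect was 1.97 to 2.55 log2 units lower outside ESC than in ESC, where the Sp1 ΔDBD and WT samples overlap. Uqcrb was lower than WT in Sp1 ΔDBD ESC, at 140.5 and 128 FPKM against 175 and 166 FPKM, and higher in progenitors. The tests lost Cox6b2 without the first or second WT ESC sample (adjusted p = 0.0682 and 0.0792) or the first Sp1 ΔDBD ESC sample (0.128), and Uqcrb without either WT ESC sample (0.0854 and 0.0685) or the second Sp1 ΔDBD one (0.0881). Atp5d was lost in 14 of the 20 analyses that left out 1 sample, and Atp5s without the second WT Flk1+ sample (0.143) or either Sp3-/- one (0.104 and 0.0801).

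Promoters were searched for 5 motifs on both strands from 250 bases before to 50 after the RefSeq start, available for 68 of the 81 members and 10989 genes of the table. GGGCGG, the GC box, was in 28 of the 68 member promoters (41.2%), against 63.5% of all. CCAAT was in 45.6% against 39.4%, CCGGAAG in 22.1% against 17.2%, GCATGCGC in 10 of 68 against 5.25%, and AAGATGGCG, a YY1 site, in 10.3% against 3.003%. Of the 5 complex III promoters 0 held a GC box, beside 14 of 31 of complex I, 2 of 3 of complex II, 6 of 13 of complex IV and 6 of 16 of complex V. The bases before the RefSeq starts of Uqcr10, which was lower in Sp1 ΔDBD, and of Ndufs7, which was higher in Sp3-/- ESC, are shown with the same conventions. The Ndufs7 bases lie wholly inside its gene in the GENCODE annotation, which begins at chr10:80249121.
Uqcr10 (chr11:4704345-4704594, minus strand): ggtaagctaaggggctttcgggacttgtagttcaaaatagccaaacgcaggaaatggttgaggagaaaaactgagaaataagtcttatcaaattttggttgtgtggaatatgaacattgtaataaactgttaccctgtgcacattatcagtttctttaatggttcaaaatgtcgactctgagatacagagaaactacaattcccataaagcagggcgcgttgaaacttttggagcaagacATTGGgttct
Ndufs7 (chr10:80249199-80249448, plus strand): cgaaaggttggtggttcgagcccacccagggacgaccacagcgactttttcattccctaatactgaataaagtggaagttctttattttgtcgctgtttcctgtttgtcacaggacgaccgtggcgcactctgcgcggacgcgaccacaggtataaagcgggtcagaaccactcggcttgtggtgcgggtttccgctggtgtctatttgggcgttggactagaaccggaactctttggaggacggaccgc
Uqcr10 holds 1 CCAAT box and Ndufs7 none of the 5 motifs in these bases. The search to 50 bases after the start found 1 match of AAGATGGCG for Ndufs7, not wholly within the bases shown. Absence of a match says only that these letters are not in the bases shown.

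Genes that build or feed the chain were counted in the same way, against the shares of all genes given above. These lists were not run through the alternative analyses, such as the GC and length correction or leaving out a sample. Of 14 complex I assembly factors 9 fell and 0 rose from WT Flk1+ cells to HE1 (29.5% and 23.5% of all genes), and 5 rose and 0 fell from HE1 to HE2 (11.7% and 10.2%). Ndufaf6 averaged 15.5 FPKM in Flk1+ cells, 4.44 in HE1 and 8.39 in HE2, and Ndufaf4 went from 10.3 to 4.28 and 7.85 FPKM. Of 11 electron carrier and coenzyme Q synthesis genes 4 rose and 0 fell from HE1 to HE2, among them Coq7, at 11.1 and 18.9 FPKM. Of 11 regulators 5 fell and 0 rose from Flk1+ cells to HE1, and 3 rose and 0 fell from HE1 to HE2, with Tfam, the packaging and transcription factor of mitochondrial DNA, at 26.3, 11.8 and 16.5 FPKM. Of 78 mitochondrial ribosomal protein genes 26 rose and 1 fell from HE1 to HE2 (33.3% and 1.28%, against 11.7% and 10.2% of all genes), with a median of 0.40 log2 units. Among those above a mean of 3 FPKM, the first WT HE2 replicate exceeded the second by a median of 0.21 log2 units. In WT HE1 this difference was 0.07. The 13 tricarboxylic acid cycle genes had 7 rises and 2 falls from ESC to Flk1+ cells, where 27.4% of all genes rose and 24.7% fell.

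In the mutants, 0 of the 14 complex I assembly factors were called in any Sp1 ΔDBD comparison, and in Sp3-/- 1 rose and 1 fell in ESC, 2 fell in Flk1+ cells and 1 fell in HE2. Of 19 complex IV assembly genes 2 rose and 3 fell in Sp1 ΔDBD HE1, where 5.69% of all genes rose and 4.35% fell, and 1 rose and 3 fell in HE2 (4.7% and 4.97%). Coa7 was higher in Sp1 ΔDBD in 4 of 5 populations, at 8.59 against 5.73 FPKM in HE1, and Cox19, a copper-handling assembly factor, fell by 1.32 in HE2, to 6.44 against 15.3 FPKM. Dlst, a subunit of the 2-oxoglutarate dehydrogenase complex of the tricarboxylic acid cycle, fell in all 5 Sp3-/- populations, by 0.33 to 0.44. Beside the 7 rises and 0 falls among the 81 respiratory chain genes in Sp3-/- ESC, the 95 cytosolic ribosomal protein genes had 5 rises and 20 falls, where 5.4% of all genes rose and 5.91% fell. Genes of mitochondrial DNA were not analysed here.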

How the data were processed

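RNA-seq was analysed in 30 samples (15 groups of 5 populations and 3 genotypes, 2 replicates each, grouped by their labels). Per the study's methods, the authors made ribosome-depleted stranded libraries, trimmed reads, aligned them with HISAT2 2.1.0 to mm10, estimated FPKM with StringTie 1.3.3, removed genes that never exceeded 1 FPKM, and brought samples to 1 distribution by quantile normalisation. The deposited values are these normalised FPKM, so depth is unknown and no counting error can be given.

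The 14525 genes whose highest deposited value exceeds 1 FPKM were tested on log2(FPKM + 0.1) with limma 3.58.1 (R 4.3.3), fitting 15 group means with an intensity trend. All 30 samples shared 1 estimate of the spread. P-values are two-sided and Benjamini-Hochberg adjusted over all genes tested in a comparison, with a threshold of 0.05. Fold changes are on the log2(FPKM + 0.1) scale, which understates those of low genes. With 2 samples a group, the smallest p an exact permutation test allows is 0.333. Stage dependence was a moderated F test of 4 interaction terms. The test was run on simulated data with 200 changed genes. Gene positions and transcripts came from GENCODE annotation of GRCm38, and promoters from RefSeq (GRCm38.p6), with 13 members lacking an entry.

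The members and lists were chosen with earlier results of these data known. Named were the highest and lowest member of each complex, up to 3 called rises and 3 called falls in each mutant comparison and WT step, isoform families, catalytic or cofactor-bearing subunits, up to 3 members with the smallest p in each stage test, Sp1 and Sp3, and up to 3 called genes of a pathway list. Alternatives were a pseudocount of 1, other filters (none, and above 5 FPKM), no trend, the 6 samples of a population alone, rescaling by the median log ratio, a correction for GC content and length, replicate blocks and leaving out each replicate. Centring by chromosome, and leaving out an Sp1 ΔDBD replicate in every population, were chosen after seeing the data.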

Additional observations from a re-analysis of the deposited data

Results flagged for a closer look

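For 4 members the effect of a mutant differed between populations by a test of the difference itself. In Sp1 ΔDBD, Cox6b2 (adjusted p of the moderated F test 0.0186) had an effect that was lower than in ESC by a log2 difference of -2.26 in Flk1+ cells, -2.49 in HE1, -2.55 in HE2 and -1.97 in progenitors. Uqcrb (0.0248) had an effect higher than in ESC by 0.69 in HE1, 0.69 in HE2 and 0.81 in progenitors. Atp5d (0.0443) had an effect lower than in ESC by a log2 difference of -1.01 in HE1 and -0.82 in HE2. In Sp3-/-, Atp5s (0.0228) had an effect lower in Flk1+ cells than in ESC by a log2 difference of -1.61. All 10 single differences are from limma and passed the adjusted threshold. After the correction for GC content and length 1 of the 3 Sp1 ΔDBD calls and 0 of the 1 Sp3-/- call were left. Their causes were not tested.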

How the results depend on the processing

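Counts of called members moved with the choice of analysis. The share of all genes called was taken for the main fit only, so the counts below cannot be set against such a share. With the 6 samples of a population alone, 0 were called in Sp1 ΔDBD ESC, HE1, HE2 and progenitors and in Sp3-/- HE1 and HE2, and 2 in Sp3-/- ESC. A pseudocount of 1 gave 2 in Sp1 ΔDBD Flk1+ cells and 5 in the Sp1 ΔDBD stage test. No intensity trend gave 3 in Sp1 ΔDBD progenitors and 0 in Sp3-/- HE2. Rescaling by the median log ratio gave 1 in Sp3-/- HE2 and 2 in WT HE1 to HE2. Centring by chromosome gave 8, 2, 4 and 1 in Sp3-/- Flk1+ cells, HE1, HE2 and progenitors and 2 in WT HE1 to HE2. The GC and length correction gave 13, 8, 7 and 1 in those Sp3-/- populations, 31 in WT Flk1+ to HE1, 1 in HE2 to progenitors, and 1 and 0 in the Sp1 ΔDBD and Sp3-/- stage tests. It reversed Atp5g2 in WT ESC to Flk1+ cells (-0.10) and Cox5a in Flk1+ cells to HE1 (0.0195), also with the replicate block.

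Same-numbered replicates of WT and Sp1 ΔDBD deviated together (correlations 0.25 to 0.48) and those of WT and Sp3-/- less so (0.00 to 0.19), but no label says what a number marks and a comparison holds 2 pairs, so the numbers were not taken as pairing. Within a genotype, same-numbered HE1, HE2 and progenitor samples also deviated together. These correlations were 0.38 to 0.46 in WT, 0.45 to 0.65 in Sp1 ΔDBD and 0.03 to 0.16 in Sp3-/-. The main fit of the steps and stage tests did not take this into account. A replicate block gave 3 in Sp1 ΔDBD progenitors, without Atp5g3 (adjusted p = 0.0522) and Atp5sl (0.0719), and did not call Ndufa8 in Sp3-/- ESC (0.0514) or Ndufs8 in Sp3-/- Flk1+ cells (0.0815) and, in the WT steps, Ndufs8 and Atp5c1 from ESC to Flk1+ cells, Cox8a and Uqcrfs1 from Flk1+ cells to HE1 and Uqcrc2 from HE1 to HE2 (0.0508 to 0.0616). A replicate block within genotype gave 38, 32 and 15 in the WT steps from ESC to HE2, and 5, 5, 12, 13 and 8 in Sp1 ΔDBD and 17, 15, 6, 11 and 3 in Sp3-/- (ESC to progenitors). The replicate block with the GC and length correction gave 6 in Sp1 ΔDBD HE1, 17, 8, 7 and 7 in Sp3-/- Flk1+ cells, HE1, HE2 and progenitors, 35 and 1 in WT Flk1+ to HE1 and HE2 to progenitors, and 1 and 2 in the stage tests.

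Leaving out 1 library gave 1 to 1, 0 to 2, 1 to 8, 2 to 8 and 0 to 4 in Sp1 ΔDBD, 0 to 5, 2 to 4, 0 to 2, 0 to 2 and 0 to 0 in Sp3-/- (ESC to progenitors), 13 to 25, 9 to 17, 0 to 9 and 1 to 4 in the WT steps, and 0 to 3 and 0 to 1 in the stage tests. A lone sample was then assumed to vary like the other groups. Leaving out an Sp1 ΔDBD replicate in every population gave 2 to 7, 1 to 26, 5 to 22 and 6 to 7 in Sp1 ΔDBD Flk1+ cells to progenitors, 13 to 14 in WT HE1 to HE2, 4 in HE2 to progenitors, 36 and 27 in the earlier WT steps, and 14, 13, 6, 9 and 3 in Sp3-/- (ESC to progenitors), where none of the libraries left out is compared but the shared spread no longer holds them. The causes were not tested. With depth unknown, genes near 0 FPKM cannot be told from undetected ones.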
